A study of Homo sapiens with 8 samples.

Results

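Polyamine metabolism was followed here through 10 genes (ODC1, AMD1, SRM, SMS, SAT1, OAZ1, OAZ2, AZIN1, PAOX and SMOX). They were chosen by name, with no measured value in the rule, though with earlier results of these data known. The array table gave them 35 of its 44988 probe sets with a single gene symbol, each a group of short probes that reads part of a transcript. All 10 genes, of 18132 on the array, passed the filter on dim signals. They were read in 3 groups of 2 arrays each. The first group was the human hepatocellular carcinoma line Hep3B (Hep3b in the labels) with DMSO, the solvent control. The second was the hepatocellular carcinoma line Huh7.5.1 with DMSO, and the third was Huh7.5.1 with CU27 at 10 μM. CU27 is a compound known here only by its code. All cultures were kept for 48 h, and the labels call the repeats biological, so each group rests on 2 cultures of 1 line. The columns labelled Hep3B CU27 were left out because their values can be computed exactly from those of Hep3B DMSO, so no response of Hep3B to CU27 is given.

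Putrescine, spermidine and spermine are small positively charged amines that bind nucleic acids and that dividing cells need. ODC1 makes putrescine from ornithine, AMD1 prepares the aminopropyl donor from S-adenosylmethionine, and SRM and SMS use that donor to build spermidine and then spermine. SAT1 acetylates the higher polyamines for export or for back-conversion by the oxidase PAOX, while SMOX oxidises spermine directly. Antizymes, the products of OAZ1 and OAZ2, bind the ODC1 protein and bring it to the proteasome, and AZIN1 is a homologue of ODC1 without its activity that ties up antizyme. Much of this control acts on translation and protein turnover, which an RNA array does not read.

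The promoters of 4 members are shown because the results below turn on them. AMD1 and SAT1 fell with CU27, ODC1 and SAT1 were higher in Huh7.5.1 than in Hep3B, and ODC1 and SRM are textbook targets of the transcription factor MYC, which binds the letters CACGTG. Each sequence holds the 250 bases before a transcription start in RefSeq, build GRCh38.p14, written 5′ to 3′ on the strand of the gene. Capitals mark the MYC letters CACGTG, the cyclic AMP response core TGACGT, the CCAAT box and the TATAA box, each searched on both strands.
AMD1, chr6:110874535-110874784, plus strand: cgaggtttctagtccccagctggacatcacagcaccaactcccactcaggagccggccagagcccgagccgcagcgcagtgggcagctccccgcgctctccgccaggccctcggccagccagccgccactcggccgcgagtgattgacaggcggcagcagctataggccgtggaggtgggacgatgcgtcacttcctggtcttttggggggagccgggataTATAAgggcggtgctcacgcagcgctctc
SAT1, chrX:23782923-23783172, plus strand: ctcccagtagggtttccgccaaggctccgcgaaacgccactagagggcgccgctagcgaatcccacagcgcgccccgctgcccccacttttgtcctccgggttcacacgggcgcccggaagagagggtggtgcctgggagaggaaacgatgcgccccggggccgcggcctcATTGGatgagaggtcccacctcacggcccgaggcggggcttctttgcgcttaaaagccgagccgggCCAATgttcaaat
ODC1, chr2:10448328-10448577, minus strand: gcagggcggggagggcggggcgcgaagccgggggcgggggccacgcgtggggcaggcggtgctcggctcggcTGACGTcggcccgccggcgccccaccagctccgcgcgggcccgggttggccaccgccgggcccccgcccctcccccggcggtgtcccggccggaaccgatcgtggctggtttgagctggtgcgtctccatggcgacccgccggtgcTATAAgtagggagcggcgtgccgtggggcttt
SRM, chr1:11060019-11060268, minus strand: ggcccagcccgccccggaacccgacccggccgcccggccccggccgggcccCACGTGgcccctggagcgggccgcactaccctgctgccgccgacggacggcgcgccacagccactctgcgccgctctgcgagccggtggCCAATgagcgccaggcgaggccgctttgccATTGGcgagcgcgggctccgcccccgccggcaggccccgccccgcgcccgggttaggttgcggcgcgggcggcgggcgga
The SRM sequence held CACGTG 199 bases before its start and CCAAT 2 times. The ODC1 sequence held TGACGT 178 bases and TATAA 32 bases before its start. AMD1 held TATAA 29 bases before its start, and SAT1 held CCAAT 2 times, the nearer 13 bases before its start. A second ODC1 start at chr2:10448012 had CACGTG 29 bases before it, in a stretch on the minus strand at chr2:10448025-10448052 that lies downstream of the first start.
ODC1, second start: cgggccccgggCACGTGtgcggcgcgcc
Among all 35116 windows of this length in the RefSeq table, 6.34% held CACGTG, 7.1% TGACGT, 32.0% CCAAT and 18.9% TATAA. These are matches of letters and do not show that a factor binds there. Windows of 7 members were read. AZIN1 was left out of the search beforehand, and no window of this length was found for PAOX or SMOX. The windows of OAZ1, OAZ2 and SMS, and the other AMD1 windows, had neither CACGTG nor TGACGT.

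Hepatocyte markers read high in all 6 arrays. The mean log2 signal of the 7 markers in the table, out of 8 listed, reached 12.39 and 12.51 on the Hep3B arrays. On the Huh7.5.1 arrays it was 13.52 and 13.56 without CU27 and 13.25 and 12.85 with it. With CU27 all 7 had negative differences, where the median over all tested genes was 0.02. Of the 7, TTR (-0.94), SERPINA1 (-0.66) and APOA2 (-0.30) fell past the test (limma adjusted p = 0.00339, 0.00126 and 0.0160). Among all tested genes 12.1% fell past the test. Of 4 leukocyte markers, PTPRC and CD3E stayed under the floor of log2 6.11 that serves as the filter on dim signals, while CD68 and LYZ were above it, and the mean of the 4 markers was 5.58 to 5.72 in Hep3B DMSO, 6.89 to 7.04 in Huh7.5.1 DMSO and 7.29 to 7.31 with CU27. The mean of the 4 fibroblast markers lay between 4.26 and 4.59 on each array, but its members differed between lines. LUM had a group mean of 6.15 in Hep3B, just above the floor, and 2.80 in Huh7.5.1 DMSO. COL1A1, COL3A1 and DCN had group means under the floor, higher in Huh7.5.1 DMSO than in Hep3B. With CU27, CD68 rose from 7.04 and 6.67 to 8.87 and 9.34, while LYZ read 11.86 and 11.83 with DMSO and 11.44 and 10.57 with CU27 (difference -0.84, limma adjusted p = 0.0657). The part of these differences in the results was not tested. Within groups, arrays correlated at 0.991 to 0.994 over probe sets. A lower signal in a culture can mean less RNA per cell or fewer cells of a kind, and these data cannot tell them apart.

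**Figure D1:**
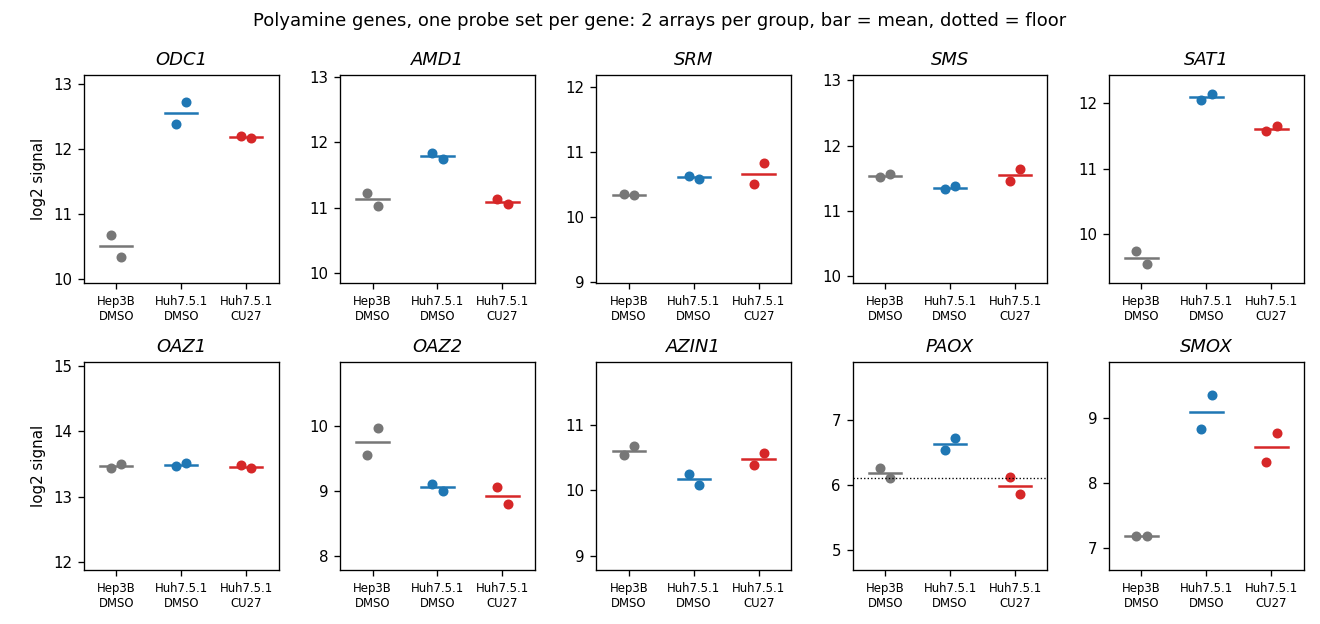
Log2 signal of the 10 polyamine genes, with 1 probe set per gene, 2 arrays as points and their mean as a bar in each group; every panel spans the same number of log2 units and the dotted line is the floor at 6.11. ODC1, SAT1 and SMOX are higher in Huh7.5.1 than in Hep3B, and the AMD1 arrays with CU27 (11.14 and 11.05) lie below those with DMSO in Huh7.5.1 (11.84 and 11.74).

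In Huh7.5.1 cells, the AMD1 transcript fell with CU27, as did those of SAT1 and PAOX in some but not all settings, and the other 7 members were not past the test. Of the 10 members, 3 fell and 0 rose, at a limma adjusted p threshold of 0.05 over all 11383 genes tested. In all genes tested, 24.7% were past the test, 12.1% downward and 12.6% upward. A count of 3 in 10 is near that background and is not a result about the pathway. The median log2 difference was -0.25 over the members and 0.02 over all tested genes. CU27 and DMSO arrays did not overlap for 7 members, 2 higher and 5 lower, against 63.8% of all tested genes, 32.9% higher and 31% lower. The count fell from 3 to 1, AMD1 alone, without DMSO replicate 1 and also without DMSO replicate 2 of Huh7.5.1.

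AMD1, adenosylmethionine decarboxylase, read 11.84 and 11.74 with DMSO and 11.14 and 11.05 with CU27 by its brightest probe set. Both CU27 arrays were lower than both DMSO arrays, by more than the gap between repeats. The log2 difference was -0.70 ± 0.11 (SE of limma with 2 arrays in each group, adjusted p = 0.00302), a 1.62-fold lower signal. The 5 other probe sets of AMD1 showed larger differences, from -1.03 to -1.13, and all 6 were past the test when every probe set was tested on its own, where 21.7% of 25602 probe sets were past the test and 11.3% fell. The AMD1 probe set with the smallest adjusted p read 10.79 and 11.04 with DMSO and 9.96 and 9.81 with CU27. AMD1 remained past the test in all 16 alternatives, with differences between -1.13 and -0.64 and limma adjusted p from 0.00121 to 0.0253. Several AMD1 probe sets carry the suffixes _s_at or _x_at, which mark probes that may match more than 1 transcript.

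ODC1, the enzyme at the entry of the pathway, has a single probe set in the annotation. It read 12.39 and 12.73 with DMSO and 12.20 and 12.18 with CU27. The CU27 arrays were the lower ones, but the DMSO arrays differed from each other by nearly as much. The difference was -0.37 ± 0.14 with an unadjusted 95% interval of -0.69 to -0.05, and it missed the threshold (limma adjusted p = 0.0876). Over the alternatives the limma adjusted p ran from 0.0249 to 0.482, and the ODC1 difference was -0.20 without DMSO replicate 2 and -0.54 without DMSO replicate 1. MYC, known to activate ODC1 in many cells, read 10.71 and 10.90 with DMSO and 10.17 and 10.31 with CU27, a fall of 0.56 ± 0.13 (limma adjusted p = 0.0138) that lost its call without DMSO replicate 2 (adjusted p = 0.116). Between the lines under DMSO, MYC read 11.02 and 11.22 in Hep3B and was lower in Huh7.5.1, with a difference of -0.52 relative to the shift (limma adjusted p = 0.00698), where ODC1 was higher. That MYC call was lost on the deposited scale (-0.31, limma adjusted p = 0.0570), without Hep3B replicate 3 (-0.37) and without Huh7.5.1 DMSO replicate 1 (-0.42). The part of MYC in the ODC1 values was not tested.

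Neither aminopropyl transferase was past the test. SRM, spermidine synthase, read 10.63 and 10.58 with DMSO and 10.50 and 10.82 with CU27, and the arrays overlapped. Its difference was 0.05 with an interval of -0.24 to 0.35 (limma adjusted p = 0.813), and the second SRM probe set gave 0.05 as well. SMS, spermine synthase, read 11.33 and 11.38 with DMSO and 11.46 and 11.64 with CU27. Its CU27 arrays were both higher, yet the difference of 0.20 ± 0.10 missed the threshold (limma adjusted p = 0.193). The interval of SMS, -0.03 to 0.43, leaves out a fall of the size seen for AMD1. A further SMS probe set lay below the floor in every array, between 3.07 and 3.42.

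Among the catabolic genes, SAT1 and PAOX fell and SMOX had a negative value that missed the threshold. SAT1, spermidine/spermine acetyltransferase, read 12.06 and 12.15 with DMSO and 11.57 and 11.65 with CU27. The groups were apart, and each pair of repeats lay close together. The difference was -0.49 ± 0.11 (limma adjusted p = 0.0136), a 1.41-fold lower signal. Its other probe sets gave -0.41 and -0.22, neither past the test, and the mean of all 3 gave -0.37 (limma adjusted p = 0.149). SAT1 also missed the threshold when either DMSO array was left out (adjusted p = 0.0518 without replicate 1 and 0.112 without replicate 2), over a range of 0.00487 to 0.149.

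PAOX, the peroxisomal oxidase of acetylated polyamines, was a dim gene. It read 6.55 and 6.72 with DMSO, just above the floor, and 6.12 and 5.86 with CU27. The mean with CU27 lay under the floor, so the fall is given as at least 1.44-fold (measured difference -0.64 ± 0.17, limma adjusted p = 0.0254). The other 5 PAOX probe sets were below the floor in every group and gave differences from -1.10 to -0.10. PAOX missed the threshold when either DMSO array or the second CU27 array was left out (adjusted p = 0.0668, 0.167 and 0.125), over a range of 0.0185 to 0.167.

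SMOX, spermine oxidase, read 8.83 and 9.34 with DMSO and 8.32 and 8.77 with CU27. No SMOX array with CU27 reached the lower DMSO array, but repeats differed by about as much as the groups. The difference was -0.54 ± 0.21 (limma adjusted p = 0.0957). Leaving out 1 array moved the SMOX value to between -0.80 (without DMSO replicate 1) and -0.28 (without DMSO replicate 2), and it was -0.31 without CU27 replicate 1. The adjusted p ran from 0.0198 to 0.508 over the alternatives. All 4 SMOX probe sets had negative values, from -0.89 to -0.40, and 1 of them was past the test on its own (limma adjusted p = 0.0333).

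The regulators of ODC1 protein gave no member past the test. OAZ1, the most widely expressed antizyme, read 13.47 and 13.51 with DMSO and 13.49 and 13.43 with CU27. These arrays overlapped, and the difference of -0.03 had an interval of -0.16 to 0.11. The 6 OAZ1 probe sets ran from -0.03 to 0.15, so the sign of so small a value depends on the probe set. OAZ2 read 9.11 and 8.999 with DMSO and 9.06 and 8.80 with CU27, a difference of -0.12 with an interval of -0.52 to 0.28. AZIN1, the antizyme inhibitor, had 2 bright probe sets of opposite sign. By the brighter one it read 10.26 and 10.08 with DMSO and 10.39 and 10.58 with CU27 (difference 0.32 ± 0.13, limma adjusted p = 0.106), and the other gave -0.21, also not past the test. No direction is therefore given for AZIN1.

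**Figure D2:**
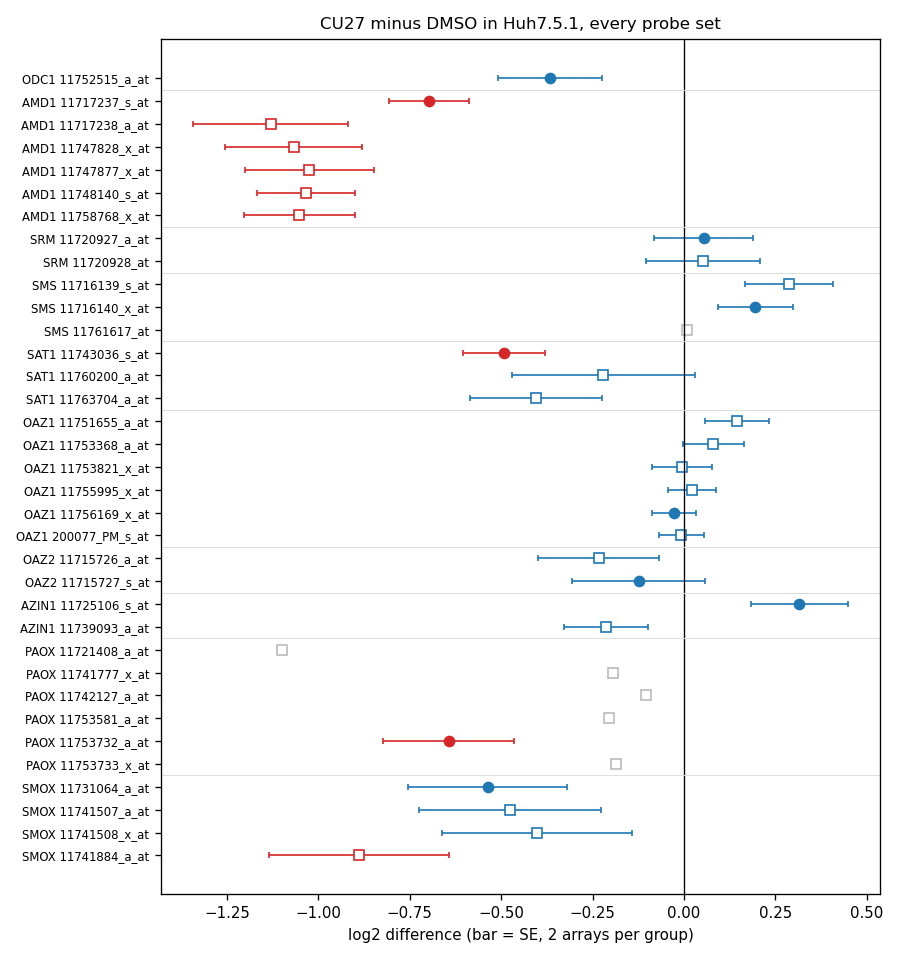
Log2 difference of CU27 minus DMSO in Huh7.5.1 for each of the 35 probe sets of the polyamine genes, with the limma SE as a bar (2 arrays per group). Filled circles are the probe set used for the gene, open squares the others, red those past the test over all probe sets, blue those not past it and grey those under the floor, which have no bar; the 6 AMD1 probe sets are all red, between -1.13 and -0.70.

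Between the lines under DMSO, Huh7.5.1 had far more ODC1, SAT1 and SMOX transcript than Hep3B, and less OAZ2 and AZIN1. The arrays of Huh7.5.1 were brighter as a whole, by 0.203 log2 units in the median of tested genes, and every difference between lines is given relative to that shift. Taken over all probe sets the shift was 0.417, which lowers each value by the gap between the shifts. Of the 10 members, 4 were higher in Huh7.5.1 and 3 lower, or 5 and 2 on the deposited scale and 3 and 4 after centring on all probe sets. Among all tested genes 62.3% were past the test, 31.5% higher and 30.8% lower, so 7 of 10 is near the background. The arrays of the lines did not overlap for 9 members, 5 higher and 4 lower, against 83% of all tested genes, 42.2% higher and 40.8% lower. Over all tested genes 3591 were higher and 3501 lower, against 4671 and 2612 on the deposited scale and 2676 and 4502 after centring on all probe sets. The median was 0.15 over the members and 0.02 over all tested genes.

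The 3′ minus 5′ signal of ACTB, a measure of RNA integrity that rises when RNA is degraded, was 2.28 and 1.60 in Hep3B and 0.94 and 1.06 in Huh7.5.1 under DMSO. With CU27 it was 0.98 and 1.21. It therefore moved with the line, and its part in the differences between lines was not tested. The lines also differed as cultures, and line and RNA quality cannot be told apart here.

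SAT1 had the largest difference when each member was read by its brightest probe set. By the mean of all probe sets SMOX was at 2.29 and SAT1 at 2.14. Both of these means include probe sets under the floor in Hep3B (5.43 and 4.38 for SMOX, 5.88 for SAT1), so they do not rank the genes. SAT1 read 9.74 and 9.53 in Hep3B and 12.06 and 12.15 in Huh7.5.1, with no overlap. Relative to the shift the difference was 2.26 ± 0.11 (SE, limma adjusted p = 9.69e-08), or 4.80-fold. Its other probe set above the floor in both lines gave 2.05, and the third read under the floor in Hep3B (mean 5.88), so its size there is not given. With CU27 the Huh7.5.1 values of 11.57 and 11.65 were still above both Hep3B arrays.

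ODC1 read 10.68 and 10.35 in Hep3B and 12.39 and 12.73 in Huh7.5.1. The gap between lines was several times that between repeats. Relative to the shift it was 1.84 ± 0.14 (limma adjusted p = 1.67e-06), a 3.58-fold higher signal in Huh7.5.1. SMOX read 7.18 and 7.18 in Hep3B, equal to that rounding but not in the table, and 8.83 and 9.34 in Huh7.5.1. Its difference was 1.70 ± 0.20 (limma adjusted p = 3.83e-05), or 3.25-fold. A second probe set gave 1.95, but it read 5.80 and 6.49 in Hep3B, close to the floor, so its size is uncertain. The other 2 SMOX probe sets read under the floor in Hep3B (means 5.43 and 4.38) and 8.26 and 7.45 in Huh7.5.1 DMSO, so they were higher there by an amount that is only bounded. ODC1, SAT1 and SMOX each remained past the test in all 16 alternatives.

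AMD1 was modestly higher in Huh7.5.1, at 11.84 and 11.74 against 11.23 and 11.03 in Hep3B. The difference was 0.46 ± 0.11 (limma adjusted p = 0.00520), and all 6 of its probe sets were higher, by 0.41 to 0.88. The AMD1 call was lost when arrays were centred on all probe sets (0.24, adjusted p = 0.0725). By the brightest AMD1 probe set, the CU27 values in Huh7.5.1, 11.14 and 11.05, fell within the range of the Hep3B arrays on the deposited scale. That did not hold for the other AMD1 probe sets. By another of them both CU27 arrays (9.02 and 8.87) lay below both Hep3B arrays (9.50 and 9.27). SRM read 10.34 and 10.34 in Hep3B and 10.63 and 10.58 in Huh7.5.1. Its difference of 0.06, with an interval of -0.22 to 0.34, was not past the test and turned to -0.15 when centred on all probe sets. The second SRM probe set gave 0.37 and the mean of all its probe sets 0.215, also not past the test.

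OAZ2 and AZIN1 were lower in Huh7.5.1. OAZ2 read 9.54 and 9.97 in Hep3B and 9.11 and 8.999 in Huh7.5.1. The difference was -0.91 ± 0.19 (limma adjusted p = 0.00190), or 1.88-fold lower in Huh7.5.1, and the second OAZ2 probe set gave -0.83. By the probe set brighter over the 6 arrays, AZIN1 read 10.54 and 10.67 in Hep3B and 10.26 and 10.08 in Huh7.5.1. The difference was -0.64 ± 0.13 (limma adjusted p = 0.00170). Its other probe set, the brighter one in Hep3B (mean 11.10 against 10.61), gave -1.29. Both AZIN1 probe sets thus placed Huh7.5.1 lower, although they disagreed on CU27. SMS read 11.51 and 11.57 in Hep3B and 11.33 and 11.38 in Huh7.5.1. Its difference of -0.39 ± 0.11 (limma adjusted p = 0.00905) was lost on the deposited scale (-0.19, adjusted p = 0.132), with the mean of all probe sets (adjusted p = 0.0860), without Hep3B replicate 3 (adjusted p = 0.0712) and without Huh7.5.1 DMSO replicate 1 (adjusted p = 0.0575).

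OAZ1 read 13.44 and 13.50 in Hep3B and 13.47 and 13.51 in Huh7.5.1, and these arrays overlapped on the deposited scale. Its difference was -0.19 ± 0.09 relative to the shift (limma adjusted p = 0.0837) and 0.02 on the deposited scale, so its sign depends on the scaling. Of its 6 probe sets, 4 were past the test and lower in Huh7.5.1 when each was tested on its own, where 60.6% of all probe sets were past the test, 34.9% higher and 25.7% lower. Its mean over all probe sets was -0.35 (limma adjusted p = 0.00506). PAOX read 6.26 and 6.11 in Hep3B and 6.55 and 6.72 in Huh7.5.1, with a difference of 0.24 ± 0.18 that was not past the test, or 0.45 on the deposited scale (limma adjusted p = 0.0445).

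**Figure D3:**
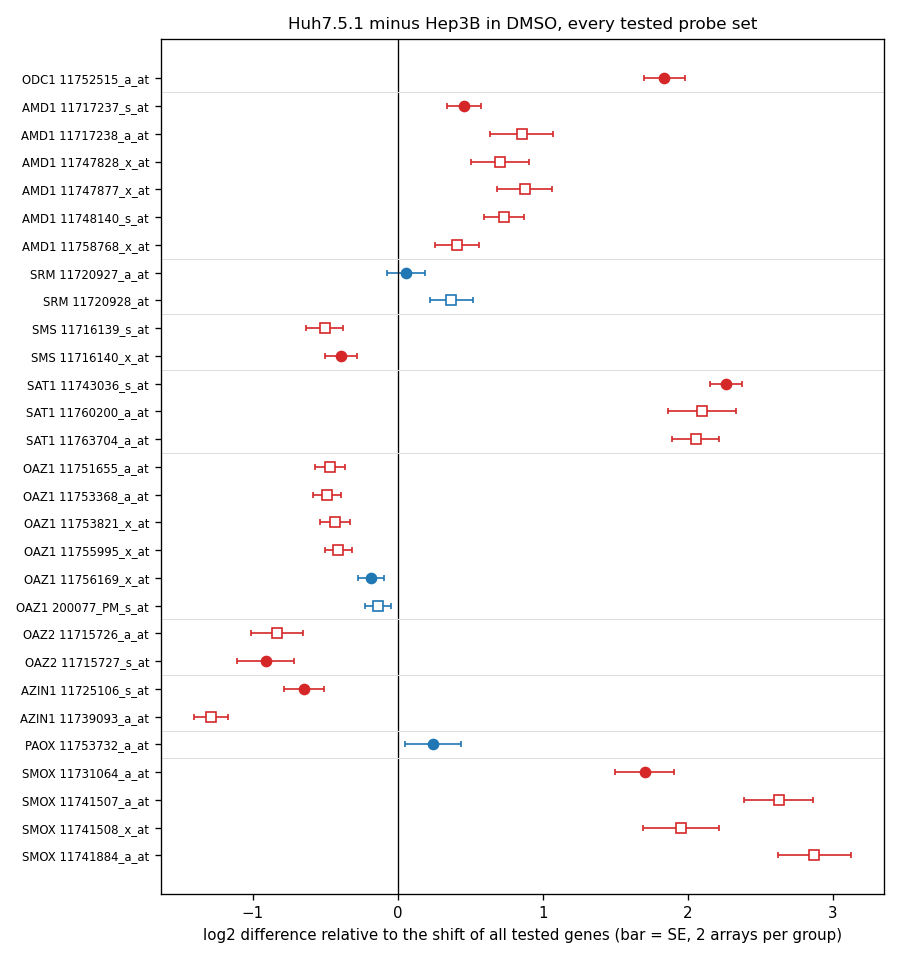
Log2 difference of Huh7.5.1 minus Hep3B under DMSO, relative to the shift of 0.203, for the 29 polyamine probe sets above the floor, with the limma SE as a bar (2 arrays per group). Filled circles are the probe set used for the gene, open squares the others, and red marks those past the test over all probe sets; SAT1, ODC1 and SMOX lie to the right, from 1.70 up, and the drawn positions of 1 SAT1 and 2 SMOX probe sets rest on Hep3B signals under the floor. OAZ2 and AZIN1 lie between -1.29 and -0.64.

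Among tested genes, those whose array pattern lay nearest to that of ODC1 were RIOX2, TMEM65 and CLCN3. Other members, unnamed loci and antisense or similar transcripts were left out of this search. Likeness was the root mean square distance of log2 values over the 6 arrays, after each gene was centred on its own mean, and it was 0.05, 0.08 and 0.09. RIOX2 read 8.61 and 8.21 in Hep3B, 10.30 and 10.57 in Huh7.5.1 with DMSO, and 10.00 and 10.11 with CU27.

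Around the core enzymes, 38 further genes were listed for supply of precursors, transport, hypusine formation, paralogs and other oxidation. The array held 35 of them and 31 reached the floor in some group. With CU27, 3 of the 31 rose and 6 fell, against the same 24.7% of all genes past the test, and the median was -0.02. The count of 9 went to 3 without DMSO replicate 2 of Huh7.5.1.

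Of 9 genes tested for the supply and salvage of S-adenosylmethionine, the substrate of AMD1, 3 fell, 0 rose and 6 were not past the test, where 12.1% of all genes fell. MAT2A, the methionine adenosyltransferase of dividing cells, read 11.86 and 11.56 with DMSO and 11.09 and 11.05 with CU27. It fell by 0.64 ± 0.11 (limma adjusted p = 0.00504), and all 6 of its probe sets fell, by as much as 1.13. AHCY, which clears S-adenosylhomocysteine, fell by 0.51 ± 0.10 (limma adjusted p = 0.00907). MTAP, which recycles the methylthioadenosine left by SRM and SMS, read 8.72 and 8.75 with DMSO and 8.02 and 8.13 with CU27. Its difference was -0.66 ± 0.19 (limma adjusted p = 0.0322), and it is named after its value was seen, to complete the count. The MTAP call was lost when either DMSO array or the second CU27 array of Huh7.5.1 was left out. Only the brightest of its 6 probe sets is given.

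On the side of ornithine and arginine, ARG2, the mitochondrial arginase that yields ornithine, read 8.06 and 8.14 with DMSO and 8.60 and 8.77 with CU27. ARG2 rose by 0.58 ± 0.15 (limma adjusted p = 0.0211), a call lost when either DMSO array or the second CU27 array was left out (adjusted p = 0.111, 0.0970 and 0.0921). AGMAT, annotated as agmatinase, fell by 0.73 ± 0.13 (limma adjusted p = 0.00609).

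CAV1, the membrane protein of caveolae linked to polyamine uptake, showed the largest difference of the 31 genes. It read 9.30 and 8.78 with DMSO and 10.75 and 10.54 with CU27, a rise of 1.60 ± 0.19 (limma adjusted p = 0.00108) or 3.04-fold. All 4 CAV1 probe sets rose. SLC18B1, a vesicular polyamine transporter, read 10.75 and 10.90 with DMSO and 10.23 and 9.87 with CU27, and it fell by 0.77 ± 0.15 (limma adjusted p = 0.00728).

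SAT2, a paralog of SAT1 that acts mainly on other amines, rose with CU27. It read 10.24 and 10.00 with DMSO and 11.12 and 11.42 with CU27, a rise of 1.15 ± 0.16 (limma adjusted p = 0.00216). In Hep3B it read 5.10 and 5.21, under the floor, so that Huh7.5.1 was at least 16.1-fold higher on the deposited scale. SAT2 has 1 probe set here.

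EIF5A, the translation factor that carries hypusine, an amino acid made from spermidine, read 12.21 and 12.23 with DMSO and 11.74 and 11.86 with CU27. It fell by 0.41 ± 0.09 (limma adjusted p = 0.00945), with 3 of its 5 tested probe sets past the test. EIF5A missed the threshold when DMSO replicate 2 was left out (adjusted p = 0.0723), with the mean of all probe sets (adjusted p = 0.120) and without the intensity trend (adjusted p = 0.0549). The other 3 hypusine genes were not past the test. Without DMSO replicate 2 the falls of AGMAT, SLC18B1 and AHCY also missed the threshold (adjusted p = 0.0627, 0.0674 and 0.0774).

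Between lines, 24 of the 31 further genes were past the test, 13 higher and 11 lower in Huh7.5.1, beside 62.3% of all genes. SLC3A2, a transporter subunit linked to polyamine export, read 9.29 and 9.36 in Hep3B and 11.95 and 11.93 in Huh7.5.1, a difference of 2.41 ± 0.11 (limma adjusted p = 8.32e-08). OAT, ornithine aminotransferase, read 9.03 and 8.96 against 11.14 and 11.34, a difference of 2.04 ± 0.13. Both were higher in Huh7.5.1 by much more than the gap between repeats. Lower in Huh7.5.1 were SLC47A1, an exporter of organic cations (-1.98 ± 0.21), SLC12A8 (-1.89 ± 0.16), the heparan sulphate proteoglycan GPC1 (-1.46 ± 0.16) and ATP13A3 (-1.22 ± 0.13). The second SLC12A8 probe set gave -0.17 and was not past the test, and that of GPC1 gave -0.28. Of the 5 tested SLC47A1 probe sets, 3 were lower, and the values reached 0.46 (not past the test). EIF5A2, a paralog of EIF5A, was higher by 1.02 ± 0.15, with 2 of its 3 tested probe sets past the test. The remaining one gave -0.18 and was not past the test. The EIF5A2 probe set used read 6.37 and 6.13 in Hep3B, close to the floor, so its size is uncertain.

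**Figure D4:**
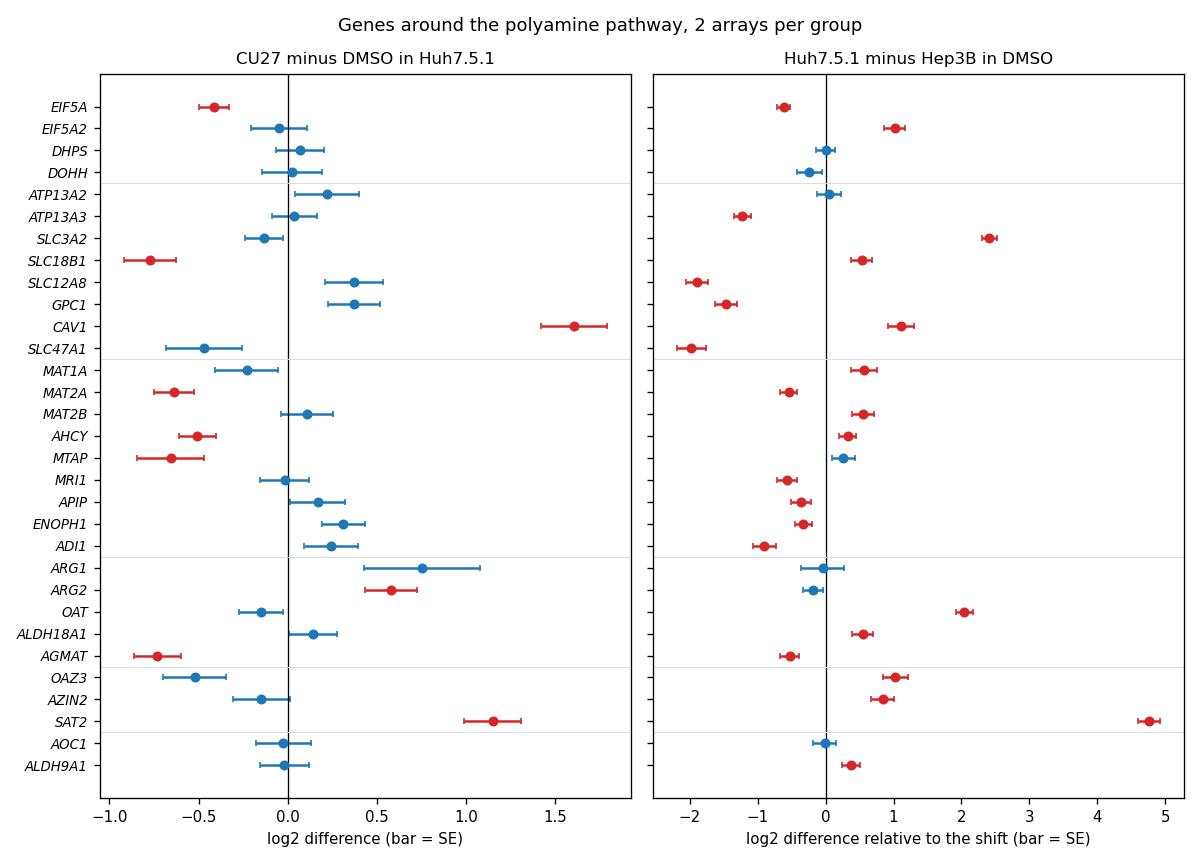
Log2 differences of the 31 further genes that reached the floor in some group. The left panel is CU27 minus DMSO in Huh7.5.1, the right Huh7.5.1 minus Hep3B under DMSO relative to the shift. Points are limma estimates, bars SE (2 arrays per group), and red marks genes past the test. CAV1 and SAT2 stand out to the right with CU27 (1.60 and 1.15). The drawn position of SAT2 between lines rests on a Hep3B signal under the floor, against which only a bound holds, at least 16.1-fold on the deposited scale. OAZ3, AZIN2, MAT1A and AOC1 also had Hep3B means under the floor (5.04, 5.72, 5.73 and 6.10), as did OAZ3 with CU27 (5.75), so their drawn sizes there are not firm.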

How the data were processed

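Total RNA was biotin-labelled with a 3′ IVT kit and read on Affymetrix arrays, per the labels' protocols. The deposited table holds 49395 probe sets in 8 columns, and its values were taken as log2 signals from their range, since the labels do not state the scale. The submitters' processing notes name MAS5, without its role. How arrays were brought to a common scale is not stated in these sources. Both Hep3B CU27 columns equalled linear combinations of the Hep3B DMSO columns within 1e-06 and were left out. After 102 control probe sets were set aside, 44988 probe sets had 1 gene symbol, 1832 several and 2473 none. For each gene, the probe set brightest on average over 6 arrays was used. A gene was tested where a group mean reached log2 6.11, the 50th percentile of all values, which left 11383 genes. The number of arrays limits the precision.

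The test was two-sided, by limma 3.58.1 under R 4.3.3 (lmFit, eBayes with trend, 3 residual degrees of freedom), with Benjamini-Hochberg adjustment over all tested genes at 0.05. Its p-values measure only the spread between these cultures. An exact permutation test of 2 against 2 arrays cannot go below 0.333 and was not used. For the lines, arrays were centred on their median over the tested genes. Intervals are 95% and unadjusted. Every probe set was also tested on its own, over 25602. Alternatives left out each array, changed the filter, the choice of probe set, the scaling or the intensity trend, fitted fewer arrays, or added the replicate number. The procedure was tested on simulated data. Named were all members, up to 8 further listed genes per comparison by smallest adjusted p, MYC, and the 3 genes nearest to ODC1; MTAP was added after its value was seen. Members, lists and motifs were chosen with earlier results of these data known. Plots were drawn with matplotlib 3.10.9.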

Additional observations from a re-analysis of the deposited data

How the results depend on the processing

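Leaving out each of the 6 arrays in turn gave 1 to 3 members, 3 to 9 further genes and 893 to 2889 genes in all past the test with CU27, and between lines 6 to 7, 17 to 24 and 5799 to 7393. Taking the mean of all probe sets left 1 of 9 members past the CU27 test, PAOX being under the floor and not tested there. Replicate numbers 1 and 2 are shared by the DMSO and CU27 arrays of Huh7.5.1 and mark nothing else in the labels. With the replicate number as a block, 5 members were past the test, ODC1 (adjusted p = 0.0249) and SMOX (adjusted p = 0.0198) being added, and 3526 genes in all; the repeats deviated together with a correlation of 0.179. The fit has 1 residual degree of freedom, and 2 pairs do not show that the numbers pair the cultures. The lines share only number 2, so no such fit was made between them.

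Values of members that were not past the test changed sign in a few settings. With CU27, SRM was at -0.107 and OAZ2 at 0.009 without CU27 replicate 2, against 0.215 and -0.257 without CU27 replicate 1. OAZ1 was at 0.035 with the mean of all probe sets. Without _x_at and _s_at probe sets OAZ1 was at 0.081 and AZIN1 at -0.214. Between lines, OAZ1 was at 0.018 on the deposited scale and SRM at -0.153 after centring on all probe sets, an alternative chosen after seeing the data. The cause was not tested. With 2 arrays per group, a value that misses the threshold does not show that a gene was unchanged.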
